A study of Rattus norvegicus with 44 samples.

Results

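MHC class I molecules carry short peptides from proteins made inside a cell to its surface, where CD8+ T cells read them. The peptides are cut by the proteasome, in which inducible catalytic subunits such as Psmb8 and Psmb9 take the place of constitutive ones. They are pumped into the endoplasmic reticulum by the transporter Tap1-Tap2, loaded with the help of tapasin (Tapbp), and held by a heavy chain together with beta-2 microglobulin (B2m). Nlrc5 is a transcriptional activator of these genes, and interferon gamma is a strong inducer of the pathway. In the healthy brain, class I expression is known to be low in neurons and higher in endothelial cells and microglia.

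These 7 genes were taken from the deposited table by symbol (B2m, Tap1, Tap2, Tapbp, Psmb8, Psmb9 and Nlrc5), and the rows of each gene identifier were summed. Each symbol matched 1 of the 18347 gene identifiers. Tests were run on 15598 genes, whose normalized values averaged 5 or more over the 44 rats, and all 7 were among them.

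The RNA came from the dentate gyrus of male F344 rats, with 1 library per rat and the tissue of a single hemisphere. Young rats labelled 6 months old received vehicle (YNG, n = 10), and older rats received vehicle (AV, n = 12), ABT-263, an inhibitor of anti-apoptotic BCL2 proteins (AA, n = 11), or dasatinib, a tyrosine kinase inhibitor, with the flavonoid quercetin (ADQ, n = 11). Both drug treatments are used as senolytics, agents meant to clear senescent cells. In the older rats, vehicle (Phosal, PEG and ethanol) or drugs in that vehicle were given by oral gavage in repeated cycles, and their labelled age of 12 months is the age at the start of treatment, several months before tissue collection. Since the labels state only an age, the treatment of the older rats comes from the deposited attributes table, matched by rat name. The depth, estimated from the smallest step between low values, ran from 10166556 to 24328321 reads per rat, and its median was 16702456 for YNG, 15135395 for AV, 15727492 for AA and 17820775 for ADQ.

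Of the 8 dentate granule cell markers looked up, 7 passed the filter on low values and Tdo2, with a mean of 0.661, did not. The sum of these markers ran from 4233 to 17080. The lowest sum belonged to AA rat 4107, in which the summed CA1 pyramidal markers reached 43228, the highest of all rats. In a dissected tissue, fewer cells of a type and less RNA per cell cannot be told apart.

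Before the values, the start regions of the genes are shown, since interferon-responsive elements there are how the pathway is known to be induced together. RefSeq windows of the GRCr8 build, from 250 bases before to 50 bases after the start, were found for 6 of the 7 genes (all but Nlrc5). Each window was searched on both strands for a run that resembles an interferon-stimulated response element, GAAA followed after any 2 bases by another GAAA. It was present in 5 of these 6 windows, against 3.92% of all 33469 windows. The matches are printed on the gene's own strand with 10 bases on each side, and capitals mark the match. In Tap1 and Psmb8 the match lies on the opposite strand, so the capitals read as its reverse complement.
B2m: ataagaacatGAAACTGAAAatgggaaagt
Tap1: cggtggctgcTTTCGGTTTCttcttcctct
Tap2: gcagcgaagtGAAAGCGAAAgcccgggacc
Tapbp: gagggaaaatGAAAGTGAAAggaaacagac
Psmb8: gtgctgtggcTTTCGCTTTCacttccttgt

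The stretches lie at chr3:129549170-129549199 for B2m (plus strand), and on the minus strand at chr20:4668645-4668674 for Tap1, chr20:4652318-4652347 for Tap2, chr20:4967878-4967907 for Tapbp and chr20:4657016-4657045 for Psmb8. Tapbp held a second match that overlaps the one printed. Tap2, Psmb8, Tap1 and Psmb9 lie next to each other in that order in the MHC on chromosome 20, and Tap1 and Psmb9 start back to back, so that their windows overlap.

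ATTGG, an inverted CCAAT box of the kind found in class I promoters, was present in B2m, Psmb8 and Psmb9, and in 37.5% of all windows. TTCNNNGAA, a gamma-activated-site-like run, was in Psmb8 alone among the 6, and in 8.87% of all windows. A kappa B-like run, GGGA and TTTCC on either side of any base, was in B2m, Tap1 and Tapbp, and in 0.362% of all windows. These letters describe the windows and say nothing of binding. The motifs were chosen after the expression values had been seen.

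The first comparison asked whether the genes differ between older vehicle rats and young rats. B2m, Tap1, Tap2, Psmb9 and Nlrc5 were higher in AV than in YNG, by factors between 1.32 and 1.95, and none of the 7 was lower. Much of this difference lay in 4 AV rats, which also carried the transcripts of cytotoxic lymphocytes. Tap2, in contrast, was higher in nearly all older rats. Among all genes tested, 10.6% were higher and 10.7% lower at the same threshold, an unadjusted p of 0.05 in the limma fit, and 2.35% passed a Benjamini-Hochberg adjusted p of 0.05 in either direction. The median log2 change was 0.41 over the 7 genes and 0.00 over all genes.

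**Figure D1:**
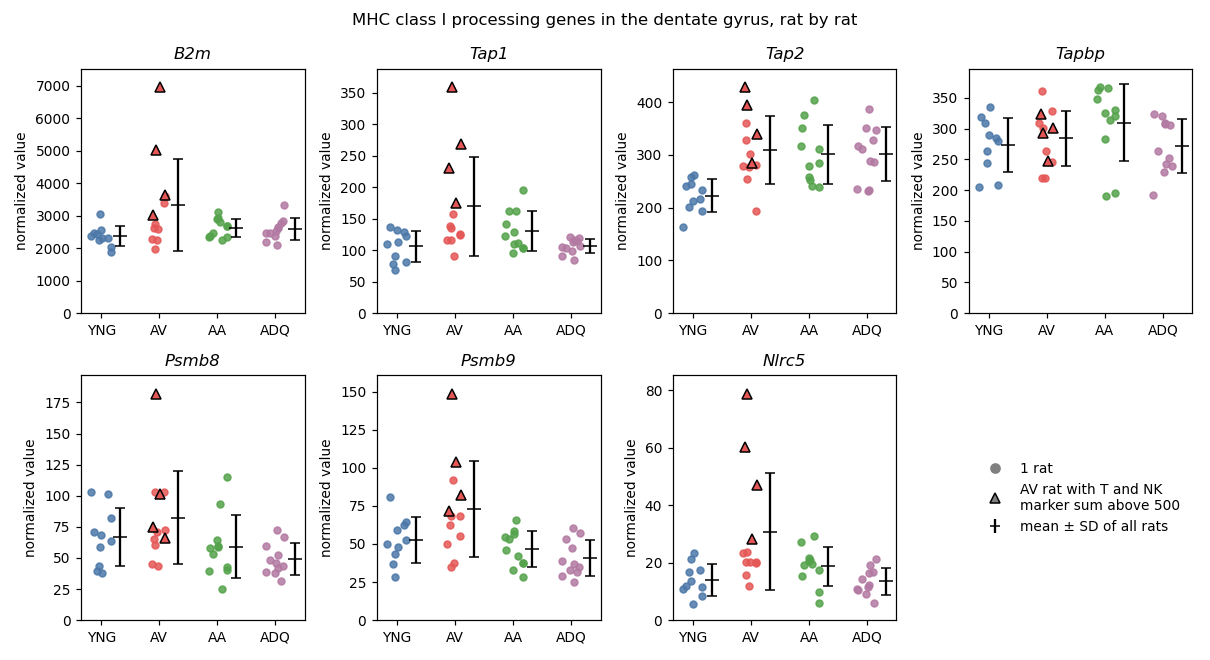
Normalized values of the 7 genes (vertical axes, starting at 0) in each rat of the 4 groups, with the mean ± SD of each group as bars. The triangles are the 4 AV rats with a T and NK marker sum above 500, which include the highest rat for each gene but Tapbp, while for Tap2 the groups of older rats all sit above most YNG rats.

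Of 19 T and NK cell markers, 14 were in the table, 9 of them among the genes tested, and their summed value was 946 in AV rat 3989, 884 in rat 3999, 1939 in rat 4009 and 1462 in rat 4568. In the other 40 rats it did not exceed 420. Perforin (Prf1), the pore-forming protein of cytotoxic cells, stood between 199 and 461 in these 4 rats and at most 13.9 elsewhere. Cd8a, the coreceptor that binds class I molecules, stood between 6.52 and 117 in them and at most 3.40 elsewhere, and it was listed at 0 in 27 rats. Nkg7, of cytotoxic granules, stood between 33.3 and 214 in them and at most 3.13 elsewhere. Cd4, which microglia can also express, was the most abundant gene of the list (mean 122) and did not set the 4 rats apart, with 99.2 to 209 in them and up to 296 elsewhere. Cd3e, a chain of the T cell receptor complex, did not set them apart either, with 1.07 to 159 in them and up to 233 elsewhere. Because this separation was seen in the data, the comparisons of the 7 genes with AV are given with all 12 AV rats and then without these 4. Rat 3989 also stood apart in other markers. Its summed markers of microglia (13283), endothelial cells (14938), oligodendrocytes (181299), astrocytes (158384), meninges (9079) and red blood cells (91042) were each the highest of the 44 rats, its CA1 sum (28922) was the second highest after that of AA rat 4107, and its dentate granule cell sum (7446) was among the 3 lowest. Rat 4009 had the highest sum of choroid plexus markers of the 44 rats (1442, against an AV median of 118). B cells could not be judged, since of 6 markers only Jchain was in the table.

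**Figure D2:**
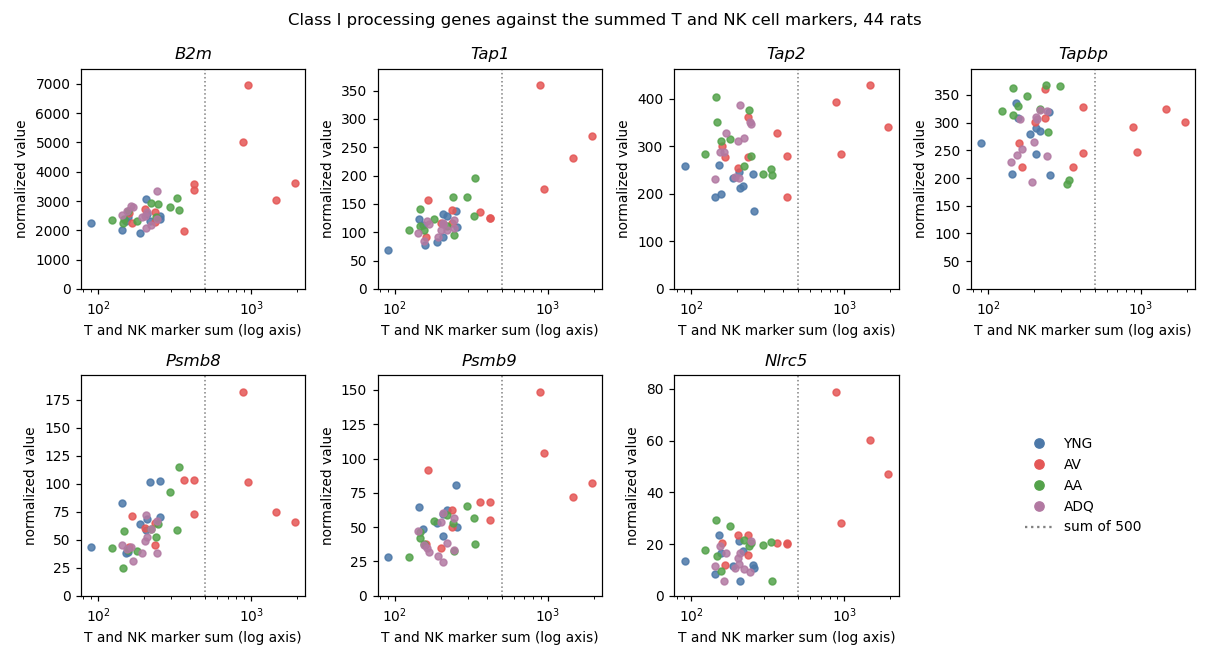
Normalized value of each of the 7 genes (vertical axis) against the summed value of the T and NK cell markers (horizontal log axis) in 44 rats, coloured by group. The 4 AV rats right of the dotted line at 500 have sums between 884 and 1939, and no rat lies between 420 and 884.

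B2m, the light chain that every class I molecule needs to leave the endoplasmic reticulum, ran from 1894 to 3063 in YNG (median 2349) and from 1976 to 6964 in AV (median 2878). Of the AV rats, 5 lay above every YNG rat, and the ranges overlapped. The AV mean was 3337 ± 1408 (SD, n = 12) against 2373 ± 315 (n = 10), a log2 change of 0.41 ± 0.13 (SE, p = 0.00265, adjusted p = 0.0742). In rats 3989, 3999, 4009 and 4568 B2m stood at 6964, 5016, 3623 and 3027, and in the other 8 AV rats between 1976 and 3591. Without rat 3989 alone B2m was still called against YNG, with a log2 change of 0.30, which is the lowest over the 22 removals of a single AV or YNG rat. Without the 4 rats the change was 0.16 ± 0.10 (p = 0.11).

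Tap1, the chain of the transporter whose gene starts next to Psmb9, ran from 69.2 to 137 in YNG (median 111) and from 91.3 to 360 in AV (median 138). In 6 AV rats the value exceeded that of every YNG rat. The log2 change was 0.60 ± 0.16 (p = 0.000658, adjusted p = 0.0368). The 4 rats held the top values of all 44 but for a single AA rat at 196, which lay above rat 3989 at 175. Without them the change was 0.26 ± 0.14 (p = 0.058).

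Tap2, the other chain of the transporter, behaved differently. It ran from 164 to 262 in YNG (median 224), from 194 to 429 in AV (median 293), from 239 to 403 in AA (median 285) and from 232 to 386 in ADQ (median 311). Of the 12 AV rats, 10 lay above every YNG rat, as did 7 of 11 AA rats and 8 of 11 ADQ rats. The log2 change was 0.46 ± 0.11 in AV against YNG (p = 0.000163, adjusted p = 0.0165). It was the 1 gene of the 7 that still passed the unadjusted threshold without the 4 rats (0.34 ± 0.12, p = 0.00571, adjusted p = 0.31).

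Nlrc5, the activator of class I genes, ran from 5.61 to 23.5 in YNG (median 12.7) and from 11.8 to 78.9 in AV (median 21.9). Its log2 change of 0.96 ± 0.27 was the largest of the 7 (p = 0.000825, adjusted p = 0.0406). Rats 3999, 4568, 4009 and 3989 stood at 78.9, 60.3, 46.9 and 28.3, while the other 8 AV rats lay between 11.8 and 23.7, close to the range of YNG. Without the 4 rats the change was 0.51 ± 0.25 (p = 0.0504).

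Psmb9, an inducible catalytic subunit of the immunoproteasome, ran from 28.6 to 81.0 in YNG (median 51.3) and from 34.97 to 149 in AV (median 68.3). The log2 change of 0.40 ± 0.20 was just past the unadjusted threshold (p = 0.0438, adjusted p = 0.22), and leaving out single rats took the p as high as 0.114. Without the 4 rats it was 0.14 ± 0.20 (p = 0.478). Psmb8, the other MHC-encoded inducible subunit, ran from 38.04 to 103 in YNG and from 43.2 to 182 in AV and did not pass (0.27 ± 0.22, p = 0.217). Tapbp, which bridges the transporter and the empty heavy chain, ran from 206 to 335 in YNG and from 220 to 361 in AV, with a log2 difference of 0.06 ± 0.11 (p = 0.623). An interval of 2 SE for Tapbp reached from -0.17 to 0.29.

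Without the 4 rats the count of called genes fell from 5 to 1, while the median over all genes stayed at 0.00 and all 7 estimates stayed above 0. Over all genes the share called higher was then 5.31% and lower 4.01%. The AV and YNG rats fall into 2 runs of rat numbers, series a (rats up to 4011 and V1 to V6) and series b, and 3 of the 4 rats belong to series a. In series a the B2m change was 0.69 ± 0.18 and the Nlrc5 change 1.39 ± 0.38, against 0.14 ± 0.12 and 0.45 ± 0.36 in series b. A test of that difference between series gave p = 0.0201 for B2m and 0.0874 for Nlrc5, with adjusted p of 0.142 and 0.301 over all genes in the limma fit.

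The treated older rats were also set against YNG. These comparisons share the YNG rats with the one above. Tap2 was the single gene of the 7 that was higher, by 0.43 ± 0.11 in AA (p = 0.000524, adjusted p = 0.0371) and by 0.43 ± 0.11 in ADQ (p = 0.000487, adjusted p = 0.0235), and none was lower. In AA against YNG, 12.6% of all genes were higher, 14.1% lower and 3.85% passed the adjusted threshold. In ADQ against YNG the shares were 13.5%, 14.6% and 7.08%. A count of 1 in 7 is close to these shares.

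In ADQ, Nlrc5 ran from 5.85 to 21.4 (median 12.2, log2 difference -0.03 ± 0.27), and Tap1 from 85.1 to 121 (median 107, 0.04 ± 0.17). Tap1 in AA ran from 95.4 to 196 (median 123), with 4 of 11 rats above every YNG rat, and its difference was 0.30 ± 0.17 (p = 0.0801). Psmb8 and Psmb9 in ADQ had estimates below YNG of -0.40 ± 0.22 (p = 0.0733) and -0.37 ± 0.20 (p = 0.0721).

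The next comparison asked whether the treatments changed these genes among older rats. Both contrasts share the AV rats with the comparison of AV and YNG and with each other. In ADQ against AV, Psmb9, Nlrc5, Tap1, Psmb8 and B2m were lower and none was higher, against 5.9% of all genes lower and 3.42% higher. In AA against AV, Psmb9, Psmb8, Nlrc5 and B2m were lower and none was higher, against 3.1% lower and 1.4% higher. No gene of the 15598 passed the adjusted threshold in either comparison with limma, although 703 and 1454 genes passed the unadjusted one in AA and ADQ.

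Psmb9 ran from 24.8 to 60.3 in ADQ (median 37.1) and from 28.02 to 65.7 in AA (median 46.2), and every rat of both groups lay below the AV median of 68.3. The log2 change against AV was -0.77 ± 0.19 in ADQ (p = 0.000195, adjusted p = 0.134) and -0.57 ± 0.19 in AA (p = 0.00443, adjusted p = 0.999). Psmb8 ran from 31.4 to 72.5 in ADQ (median 45.6) and from 24.8 to 115 in AA (median 58.0). Its change was -0.67 ± 0.21 in ADQ (p = 0.00249) and -0.48 ± 0.21 in AA (p = 0.0276). Both MHC-encoded inducible subunits were thus at their lowest group mean in ADQ.

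Nlrc5 changed by -0.995 ± 0.262 in ADQ (p = 0.000425, adjusted p = 0.185), and all 11 ADQ rats lay below the AV median. In AA it ran from 5.82 to 29.2 (median 19.7), with a change of -0.57 ± 0.26 (p = 0.0338). Tap1 changed by -0.56 ± 0.16 in ADQ (p = 0.000993), where every rat was below the AV median, and by -0.30 ± 0.16 in AA (p = 0.0668). B2m ran from 2094 to 3343 in ADQ and from 2243 to 3117 in AA, with changes of -0.29 ± 0.13 (p = 0.0252) and -0.26 ± 0.13 (p = 0.0425). Neither B2m change passed without rat 3989. Tap2 did not differ from AV beyond its error in ADQ (-0.03 ± 0.11) or AA (-0.03 ± 0.11), and an interval of 2 SE ran from about -0.25 to 0.19 in each.

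Without the 4 AV rats, ADQ was lower than AV for Psmb9 (-0.51 ± 0.19, p = 0.0118), Psmb8 (-0.50 ± 0.22, p = 0.0309) and Nlrc5 (-0.55 ± 0.25, p = 0.0341), all with an adjusted p of 0.867, while 2.6% of all genes were lower. Tap1 was then at -0.23 ± 0.13 (p = 0.0946) and B2m at -0.04 ± 0.10. In AA none of the 7 passed, while 1.17% of all genes were lower, with Psmb9 at -0.31 ± 0.19 (p = 0.12), Nlrc5 at -0.12 ± 0.25 and B2m at -0.01 ± 0.10. In series b, the AV rats carry numbers from 4566 on and the treated rats lower ones, so the run of rat numbers and the treatment cannot be told apart there. Within series b, ADQ was lower than AV in 4 of the 7 genes and AA in 0, against 4.75% and 2.61% of all genes. Within series a the counts were 5 and 3, against 3.85% and 2.29%.

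**Figure D3:**
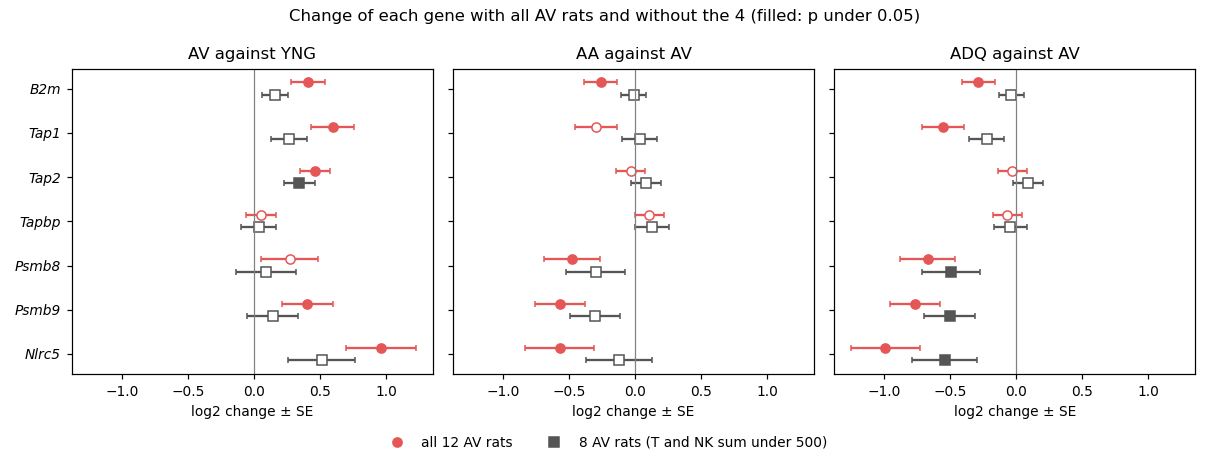
Log2 change ± SE (horizontal axis) of each gene in 3 comparisons, with all 12 AV rats (circles) and with the 8 AV rats whose T and NK marker sum is under 500 (squares). Filled symbols passed an unadjusted p of 0.05 in the limma fit, and Tap2 in AV against YNG and Psmb8, Psmb9 and Nlrc5 in ADQ against AV did so in both fits.

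AA and ADQ did not differ in any of the 7 genes. The largest difference was that of Nlrc5 (0.42 ± 0.27, higher in AA, p = 0.121), followed by Tap1 (0.26 ± 0.16, p = 0.115), and the intervals of 2 SE reached 0.96 and 0.59. Among all genes, 2.13% were higher and 2.4% lower. With the 4 AV rats left out of the estimate of the spread, Tap1 was higher in AA than in ADQ (p = 0.037, adjusted p = 0.893) and than in YNG (p = 0.0209, adjusted p = 0.113), and Psmb9 was lower in ADQ than in YNG (p = 0.0493, adjusted p = 0.167).

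The inducible subunits were next related to the constitutive subunits they replace, within each rat. Psmb5, Psmb6 and Psmb7 form the constitutive catalytic core, and Psmb5 and Psmb7 were lower in AV than in YNG, by -0.41 ± 0.17 (p = 0.0185, adjusted p = 0.154) and -0.50 ± 0.17 (p = 0.00469, adjusted p = 0.0924), and 1 of the 3 was lower without the 4 rats. Both were lower than in YNG in the treated groups too, Psmb5 by -0.43 ± 0.17 in AA and -0.49 ± 0.17 in ADQ, and Psmb7 by -0.64 ± 0.17 in AA and -0.58 ± 0.17 in ADQ, the latter gene with adjusted p of 0.037 and 0.0348. The log2 ratio of Psmb8 to Psmb5 was -5.25 ± 0.36 (SD, n = 10) for YNG, -4.57 ± 0.69 (n = 12) for AV, -5.03 ± 0.48 (n = 11) for AA and -5.16 ± 0.37 (n = 11) for ADQ. AV exceeded YNG by 0.68 ± 0.23 (permutation test, p = 0.00774, adjusted p = 0.087 over 18 tests), with 10 of 12 AV rats above the YNG mean. ADQ lay below AV by 0.60 ± 0.23 (permutation test, p = 0.0145, adjusted p = 0.087), with no ADQ rat above the AV mean.

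The ratio of Psmb9 to Psmb6 differed by 0.88 ± 0.42 between AV and YNG (permutation test, p = 0.0431, adjusted p = 0.155). In YNG it was between -1.48 and -0.92 in 9 rats and at 1.82 in rat V11, in which Psmb6 had its lowest value of all YNG rats. Without V11, left out after its value was seen, the difference between AV and YNG was 1.18 (permutation test, p = 2e-05, not adjusted). Psmb10, which replaces Psmb7, is encoded outside the MHC. Its ratio to Psmb7 did not differ between AV and YNG by this test (0.25 ± 0.14, permutation p = 0.0984) and was higher in AA than in YNG (0.39 ± 0.14, permutation test, p = 0.0127, adjusted p = 0.087). With all rats included, no ratio passed the adjusted threshold. Without the 4 AV rats the AV differences were 0.37 for Psmb8 to Psmb5 and 0.41 for Psmb9 to Psmb6, and neither passed (exact permutation p = 0.0857 and 0.338). Those of ADQ against AV were then -0.29 ± 0.21 and -0.35 ± 0.27 (exact permutation p = 0.166 and 0.245). In series b alone the AV to YNG differences were -0.04 and 0.01. The latter rests on rat V11, 1 of the 4 YNG rats of that series, and was 0.80 without it (permutation p = 0.0238).

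**Figure D4:**
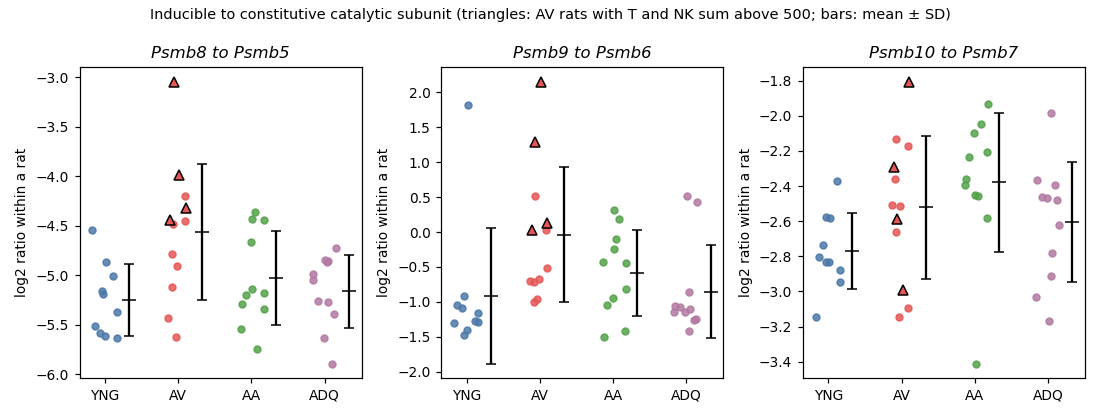
Log2 ratio of each inducible to its constitutive catalytic subunit in each rat (vertical axes, which do not start at 0), by group, with the mean ± SD as bars and the 4 AV rats with a high T and NK marker sum as triangles. The AV group has the highest mean for Psmb8 to Psmb5 (-4.57) and Psmb9 to Psmb6 (-0.04), and a single YNG rat stands far above its group in the latter.

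The rest of the pathway was examined by lists. Beside their counts, 10.6% of all genes were higher and 10.7% lower in AV against YNG. Against AV, 5.9% of all genes were lower in ADQ and 3.1% in AA. Of the 15 RT1 class I heavy chain genes tested (of 16 in the table), 4 rose and 2 fell in AV against YNG, with a median log2 change of 0.21. RT1-A1, a classical class I heavy chain, was higher by 0.53 ± 0.15 (p = 0.00079, adjusted p = 0.0403), RT1-CE7 by 0.48 ± 0.20 and RT1-CE4 by 0.39 ± 0.18. In ADQ against AV, 9 of the 15 were lower and 1 was higher (median -0.37), and in AA against AV 5 were lower and none higher (median -0.25; without the 4 rats 1 was higher and none lower). Leaving out the 4 rats gave 1 higher and 1 lower chain against YNG, with the median turning to -0.09, and the counts of ADQ against AV were 0 higher and 1 lower. These genes are close copies of each other whose reads could be divided among them, so the value of any single chain is uncertain.

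Chains with a class I fold outside that group were higher in AV than in YNG for 3 of the 5 tested. They were Procr, the endothelial protein C receptor (0.57 ± 0.21), Mr1, which presents vitamin metabolites (0.58 ± 0.22), and Hfe, a regulator of iron uptake (0.46 ± 0.20), at adjusted p from 0.122 to 0.178, and 1 of the 5 was higher without the 4 rats. Mr1 and Hfe were also higher than in YNG in ADQ, by 0.73 ± 0.23 (adjusted p = 0.0417) and 0.70 ± 0.20 (adjusted p = 0.0313), and in AA, by 0.45 ± 0.23 (p = 0.0495) and 0.47 ± 0.20 (p = 0.0247). Fcgrt, the neonatal Fc receptor chain, named after its values were seen, was lower in ADQ than in YNG (-0.33 ± 0.14, p = 0.0284), and in ADQ against AV Fcgrt (p = 0.0425) and Procr (-0.60 ± 0.21, p = 0.00621) were lower, calls that were both lost without the 4 rats. Of 12 genes for peptide loading and trimming, Erap1, the peptidase that trims peptides in the endoplasmic reticulum, was higher (0.21 ± 0.10, p = 0.0415) and Calr, a chaperone of the loading complex, lower (-0.30 ± 0.12, p = 0.02), and the list's median was -0.04. Neither direction held a called gene of this list once the 4 rats were left out. Erp29, another reticulum chaperone and the next by p, was at -0.25 ± 0.13 (p = 0.0584).

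Other parts of the proteasome were looked at next. Of the 4 genes for Psmb10, the activator PA28 and the assembly factor Pomp, none passed in AV against YNG, with Pomp at -0.32 ± 0.16 (p = 0.06), Psmb10 at -0.25 ± 0.17 and Psme2 at -0.25 ± 0.19. Pomp was lower in AA than in YNG (-0.53 ± 0.17, limma p = 0.00258, adjusted p = 0.0547). Psmb10 was lower in ADQ than in YNG (-0.41 ± 0.17, limma p = 0.0221, adjusted p = 0.115). Of the other 10 core subunits tested, 3 were lower (Psma7 by -0.33 ± 0.13, Psmb1 by -0.36 ± 0.14 and Psma1 by -0.21 ± 0.10) and none was higher, and 0 of the 10 passed without the 4 rats. Against YNG, 5 of the 10 were lower in AA and 3 in ADQ, none was higher, and Psma7 had adjusted p of 0.0434 and 0.0397 in these comparisons, which hold none of the 4 rats as a group member. Neither list held a gene that passed in ADQ or AA against AV.

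Among 13 factors that act on class I promoters, 5 were higher in AV than in YNG and none lower. Irf1, an interferon-induced activator, ran from 127 to 189 in YNG and from 156 to 393 in AV, with a log2 change of 0.43 ± 0.11 (p = 0.000374, adjusted p = 0.0283). It was lower in both AA and ADQ than in AV by -0.34 ± 0.11 (p = 0.0033 and 0.00336). Irf2 was higher by 0.26 ± 0.09 and the NF-kappaB subunit Rela by 0.25 ± 0.10. With the 4 rats left out, 2 of the 13 were higher. None of the 13 was then lower in AA or ADQ than in AV, so both Irf1 calls against AV were lost. In the other 8 AV rats Irf1 lay between 156 and 200.

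In interferon signaling, the kinase Tyk2 and the receptor chain Ifngr1 had estimates in AV against YNG of 0.29 ± 0.16 (p = 0.0798) and 0.13 ± 0.08 (p = 0.11). Ifngr1 was lower in ADQ than in AV (-0.22 ± 0.08, p = 0.00861, adjusted p = 0.398), a call lost without the 4 AV rats. Jak1, a kinase of the interferon receptors named here after its values were seen, was higher in ADQ than in AV (0.17 ± 0.06, p = 0.0101, adjusted p = 0.399). It was also higher in ADQ than in YNG (0.258 ± 0.065, limma p = 0.000229, adjusted p = 0.0198). In AA it was lower than in ADQ (-0.218 ± 0.063, limma p = 0.00118, adjusted p = 0.981). The interferon genes Ifng and Ifnb1 were not analysed here.

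**Figure D5:**
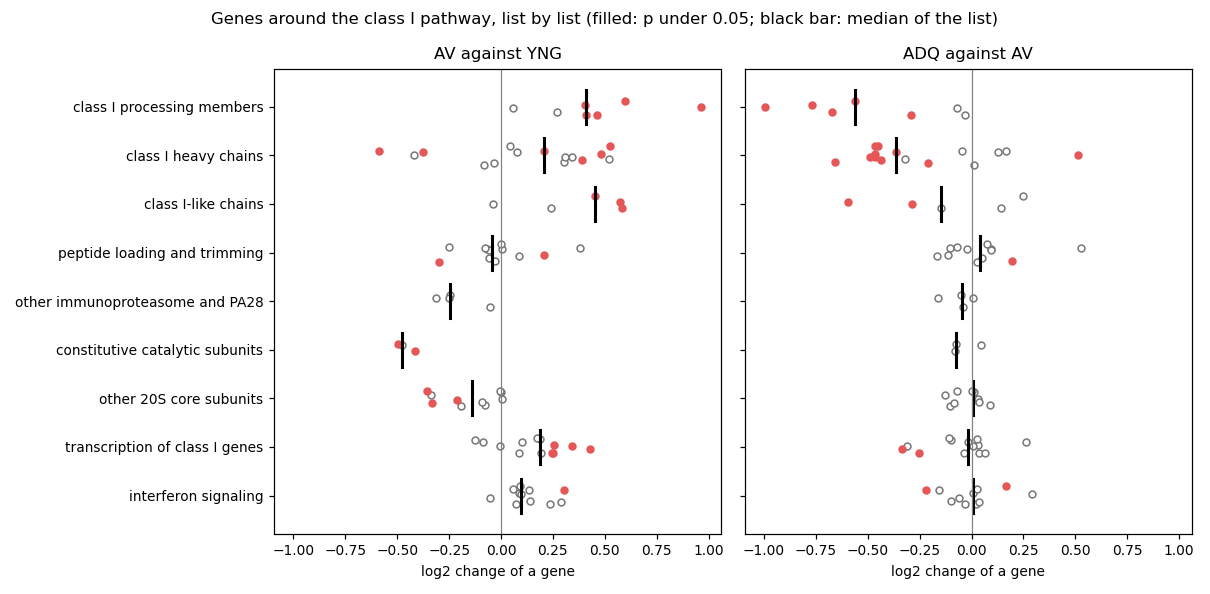
Log2 change of every tested gene (horizontal axis) in 9 lists of the pathway, in AV against YNG and in ADQ against AV, with the median of each list as a black bar and genes past an unadjusted p of 0.05 filled. In AV against YNG the median is 0.41 for the 7 genes and -0.48 for the constitutive catalytic subunits, and in ADQ against AV it is -0.56 for the 7 genes and -0.37 for the heavy chains.

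Markers of other cell types moved with the AV group as well. In AV against YNG, 7 of 9 T and NK cell markers, 6 of 13 microglia markers, 9 of 9 endothelial markers, 7 of 8 oligodendrocyte markers, 3 of 8 astrocyte markers and 2 of 8 markers of pericytes and smooth muscle were higher. None of these was lower, and over all genes 10.6% were higher and 10.7% lower. Of the T and NK markers tested, Cd8a, Gzmk and Nkg7 did not exceed 3.40 outside the 4 rats. They passed the filter at a mean of 5 only through those AV rats. The T and NK counts in comparisons with AV were thus partly set by the filter. The summed endothelial markers, of which the glucose transporter Slc2a1 was the most abundant (mean 1900), had medians of 3525, 5299, 4494 and 4462 for YNG, AV, AA and ADQ, and the 4 rats stood at 14938, 7890, 8668 and 8946. The summed microglia markers, led by Csf1r (mean 2055), had medians of 7889, 8060, 7114 and 6780 in the same order. When the 4 rats were left out, 2 of 9 T and NK, 3 of 13 microglia, 5 of 9 endothelial, 7 of 8 oligodendrocyte, 0 of 8 astrocyte and 1 of 8 pericyte and smooth muscle markers were higher, against 5.31% of all genes. The fall in the T and NK count follows from the choice of the 4 rats by the sum of these markers. Ccl5 and Prf1 led the T and NK list, with log2 changes of 2.91 ± 0.73 and 2.77 ± 0.73 in AV against YNG and of -3.14 ± 0.71 and -3.02 ± 0.71 in ADQ against AV. In ADQ against AV, 7 of 9 T and NK, 9 of 13 microglia, 7 of 9 endothelial and 5 of 8 oligodendrocyte markers were lower, and in AA against AV 8, 4, 4 and 0. Those counts became 2, 3, 0 and 2 in ADQ and 1, 1, 0 and 0 in AA without the 4 rats. For the T and NK markers this fall again follows from the choice of the 4 rats. Over all genes, 5.9% were lower in ADQ and 3.1% in AA with all AV rats, and 2.6% and 1.17% without the 4. The part of these cells in the change of the 7 genes was not tested beyond leaving out the 4 rats.

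Fewer genes passed in the remaining lists. Over all genes 10.6% were higher and 10.7% lower in AV against YNG, and a count of 1 in a list this short is close to these shares. None of the 5 choroid plexus, 7 meningeal, 3 perivascular macrophage or 6 CA1 markers tested passed in AV against YNG, although the median log2 change was 0.79 for the choroid plexus list. In the same comparison 1 of 5 red blood cell markers (Slc4a1, 1.44 ± 0.67, p = 0.0368) and 1 of 5 CA3 and mossy cell markers (Csf2rb, a cytokine receptor chain that myeloid cells also express, 0.60 ± 0.19) were higher, and 1 of 7 dentate granule cell markers (Calb1, -0.62 ± 0.15, adjusted p = 0.0133) was lower. The red blood cell list had a median log2 change of 0.68. All 5 of its genes were lower in ADQ than in AV, against 5.9% of all genes, and 0 of 5 without the 4 rats, against 2.6%.

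The last question was which genes varied together from rat to rat once group means were removed. In all, 20 relations were computed, and all p-values are from permutation tests and adjusted over them. Psmb8 followed the mean log2 of the microglia markers most closely, with r = 0.74 and rho = 0.81 over 44 rats (permutation p = 1e-05 for each, the smallest possible, adjusted p = 0.0002). Without the 2 rats farthest from the median r was 0.79, and it was 0.64 in series a and 0.90 in series b. Psmb9 gave r = 0.53 and rho = 0.49 (permutation p = 0.0003, adjusted p = 0.0024), Tap1 r = 0.47 and rho = 0.53 (permutation p = 0.00135, adjusted p = 0.00675) and B2m r = 0.54 and rho = 0.46 (permutation p = 0.00036, adjusted p = 0.0024). For B2m the relation rested on few rats, since r was 0.78 in series a and 0.18 in series b, and 0.26 without the 4 AV rats (permutation p = 0.114). Tap2, Tapbp and Nlrc5 gave r of -0.17, -0.19 and -0.04.

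B2m itself was related to Nlrc5 with r = 0.35 and rho = 0.37, to Tap1 with r = 0.37 and rho = 0.29, to Psmb9 with r = 0.34 and rho = 0.20 and to Psmb8 with r = 0.33 and rho = 0.28, none of which passed after adjustment (adjusted permutation p for r from 0.0521 to 0.0682). With the means of the rat series removed too, r with Tap1, Psmb8 and Psmb9 passed the adjusted threshold. Without the 4 AV rats, and with group means alone removed, r of B2m with Nlrc5, Tap1, Psmb9 and Psmb8 was 0.15, -0.01, -0.03 and 0.13. Its r with Tap2 and Tapbp was -0.01 and -0.10. The score of the T and NK markers splits the rats into separate clusters, so its relations are given over the other 40 rats alone. There Psmb8 gave r = 0.44 and rho = 0.37 (permutation p = 0.00424, adjusted p = 0.017, and for rho adjusted p = 0.0652), and the other 6 genes lay between -0.14 and 0.31 with adjusted p of at least 0.104. In these 40 rats the medians of Cd8a, Gzmk and Nkg7 were 0 and those of Prf1 and Ccl5 1.70 and 2.01. With cytotoxic markers this near the floor, the score says little about such cells. With the microglia markers, Psmb8 gave r = 0.81 over the same 40 rats. Among the members, the closest pair was Tap1 and Psmb9, with r = 0.65 over 44 rats, given as a description. AV rat 3999 held the highest value of both genes (360 and 149), and this r was not repeated without the 4 AV rats.

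The 10 genes outside the 7 whose log2 values were most like the mean of the standardized values of the 7 over 44 rats, group differences included, were Lgals3bp (r = 0.85), RT1-A1 (0.84), Arpc1b (0.83), Piezo1 (0.81), Vim (0.81), Gzmbl2 (0.80), Angpt2 (0.78), Irf1 (0.77), Slc2a1 (0.77) and Itgb2 (0.77). Gzmbl2 is a granzyme gene and Angpt2 an endothelial ligand. Over the 40 rats without the 4, these r ran from 0.25 for Irf1 to 0.68 for Arpc1b, and Arpc1b alone stayed among the 10 highest.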

How the data were processed

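RNA-seq of the dentate gyrus of 44 rats was analysed. The authors aligned reads to rn6 with STAR 2.5.3a in Partek and deposited signal values, estimated reads per row divided by a median-ratio size factor. The annotation is not given in the sources used here. Low values were whole reads (tolerance 0.05 reads) for 79.2% to 84.2% of genes with 1 row but for 58.0% to 63.9% of all 24694 rows, so no count model was used. Rows were summed per identifier, and 15598 genes with a mean of at least 5 were tested as log2(value + 1), on which scale all changes stand, with limma 3.58.1 (trend, 1 fit of 4 groups, two-sided) in R 4.3.3. The threshold was the study's unadjusted p of 0.05, with Benjamini-Hochberg adjustment over all genes beside it. Ratios and correlations were tested with 100000 permutations in Python 3.11.15 (numpy 2.4.6, scipy 1.17.1). The fit was tested on simulated data.

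Named were the 7 genes, the 3 smallest p of each pathway list in AV against YNG, marker genes and the 10 most alike genes. Prf1, Cd8a, Nkg7 and Ccl5 are markers. The 7 genes, lists, tests and rat series were chosen with earlier results of these data known. Alternatives covered pseudocounts, filters, scalings, weights, rat series, single rows and each rat left out. Leaving out 4 AV rats was added after seeing the values. P-values cover the spread between rats, of which depth is a part. A result in the interferon signaling list is not reported here.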

Additional observations from a re-analysis of the deposited data

Results flagged for a closer look

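Over the 24 sets of YNG values checked (the 7 genes, 3 ratios and 14 marker sums), a single rat stood far from the other 9. The log2 ratio of Psmb9 to Psmb6 was 1.817 in YNG rat V11, the nearest rat was at -0.92 and the lowest at -1.48, so that the gap took 0.83 of the whole range, above Dixon's limit for 10 rats. Chance passes that limit in about 1 group in 20. Psmb6 in this rat was the lowest of its group, whose median was 128, and Psmb9 lay inside the range of its group. The cause was not tested. The AV, AA and ADQ groups hold more than 10 rats and were not checked in this way. No difference between rat series passed the adjusted threshold for any of the 7 genes, while over all genes 4.47% passed for AV against YNG and 1.8% for AA against YNG.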

How the results depend on the processing

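The number of the 7 genes called was within 1.5 times of that reported in AV against YNG (5), AA against AV (4) and ADQ against AV (5) for the other pseudocounts, filters, upper quartile scaling, quantile normalization, the rat series covariate and the highest row alone, and the exceptions follow. At an adjusted p of 0.05 the counts were 3, 0 and 0. Without the 4 AV rats they were 1, 0 and 3. In rat series b alone they were 3 and 0 for the former 2, 2 in AA against YNG and 1 in AA against ADQ. Of all 15598 genes, 984, 656, 1928 and 648 were called there, in the same order. Values per total gave 4 in AA against YNG and 2 in AA against AV, where 5174 and 662 of the 15598 genes were called. Array weights gave 3 in AA against YNG, 3 in ADQ against YNG, 2 in AA against AV and 2 in AA against ADQ. That fit called 7068, 8101, 921 and 1584 of the 15598 genes in these comparisons, so the counts of 3 are close to the share of all genes. The fit of the 2 groups alone gave 2 in ADQ against YNG, 2 in AA against AV and 1 in AA against ADQ. It called 5005, 480 and 877 of all genes there. Quantile normalization or the highest row alone gave 2 in ADQ against YNG. In ADQ against YNG, each call beyond Tap2 in these fits, with array weights or with 1 rat left out was Psmb8 or Psmb9. Each of these calls was lower than in YNG. Leaving out 1 rat at a time gave 4 to 5 in AV against YNG, 1 to 2 in AA against YNG, 1 to 3 in ADQ against YNG, 1 to 5 in AA against AV (1 without AV rat 3999), 4 to 5 in ADQ against AV and 0 to 2 in AA against ADQ. With 1 rat left out, the Psmb8 to Psmb5 log2 ratio, AV against YNG, differed by 0.544 to 0.778. The Psmb9 to Psmb6 log2 ratio, AV against YNG, differed by 0.681 to 1.183, with p over 0.05 in 15 of 22 removals. The value of 1.183 was that without YNG rat V11 (permutation p = 2e-05). The Psmb10 to Psmb7 log2 ratio, AV against YNG, differed by 0.184 to 0.306. The first 2 of these ratios differed by 0.373 and 0.411 without the 4 AV rats. In series b alone Psmb8 to Psmb5 reversed to -0.038 and Psmb9 to Psmb6 was 0.007, or 0.80 without YNG rat V11. With series means removed too, r with B2m passed the adjusted threshold for Tap1 (0.368), Psmb8 (0.38) and Psmb9 (0.459), while r of B2m with microglia was 0.255 without the 4 rats. Of the gene-by-gene changes no called one changed sign. The cause of these shifts was not tested. Values per total moved the median of all genes against YNG by 0.10 for AV, 0.15 for AA and 0.15 for ADQ, and the share of called genes that were higher from 49.6% to 81.1% for AV, 47.2% to 85.3% for AA and 48.0% to 82.6% for ADQ. Upper quartile scaling gave 61.0% for AV. Against AV, values per total moved the share from 31.2% to 52.6% in AA and from 36.7% to 47.8% in ADQ, and in AA against ADQ from 47.0% to 61.8%. No paired analysis was possible because the groups share no replicate numbers in the labels.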
